A study of Mus musculus with 8 samples.

Results

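The type I, III and V fibrillar collagen genes were examined in the cartilage of mice with destabilisation of the medial meniscus (DMM), a surgical model of post-traumatic osteoarthritis. The 6 genes Col1a1, Col1a2, Col3a1, Col5a1, Col5a2 and Col5a3 were chosen by name, because their products form the collagen fibrils of types I, III and V. The choice was made with earlier results of these data known. All 6 were found among the 50462 gene identifiers of the table. RNA-seq had been performed on medial knee cartilage of wild-type male C57Bl/6J mice. The naive group held 4 untreated mice sampled at day 0, when they were 11 weeks old. The DMM group held 4 mice whose medial meniscus tibial ligament had been cut in the left knee at 11 weeks of age, and which were sampled at day 42, when they were 17 weeks old. Each library came from 1 mouse, so the p-values below measure the spread between these mice. No sham-operated group was analysed here, and the effect of surgery cannot be told apart from 6 weeks of ageing.

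Fibrillar collagens are long triple helices that align side by side in the extracellular matrix. Type I collagen, built from a pair of alpha1 chains and a single alpha2 chain, is the main fibril of bone, tendon, ligament and fibrous tissue, whereas the fibrils of hyaline cartilage consist mainly of type II with type XI collagen. Type III collagen, a homotrimer, accompanies type I in soft and healing tissue, and type V collagen is buried within type I fibrils, where it starts fibril formation and limits fibril diameter.

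All 6 genes had a higher mean in the DMM mice than in the naive mice, with estimates between 1.84-fold for Col5a3 and 4.05-fold for Col3a1. In 5 of the 6 genes every DMM library lay above every naive library, an arrangement that 11.9% of the 17760 tested genes also showed in this direction. A gene was called when its adjusted P-value in DESeq2 was at most 0.05 and its change was at least 1.5-fold. On this rule all 6 were called higher in the DMM mice, against 7.75% of all tested genes called higher (13.7% in either direction) and 8.11% of the 3007 tested genes at least as abundant as Col5a3. The call for Col5a3 was lost with other tools and with most single libraries left out, as described with its values.

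**Figure D1:**
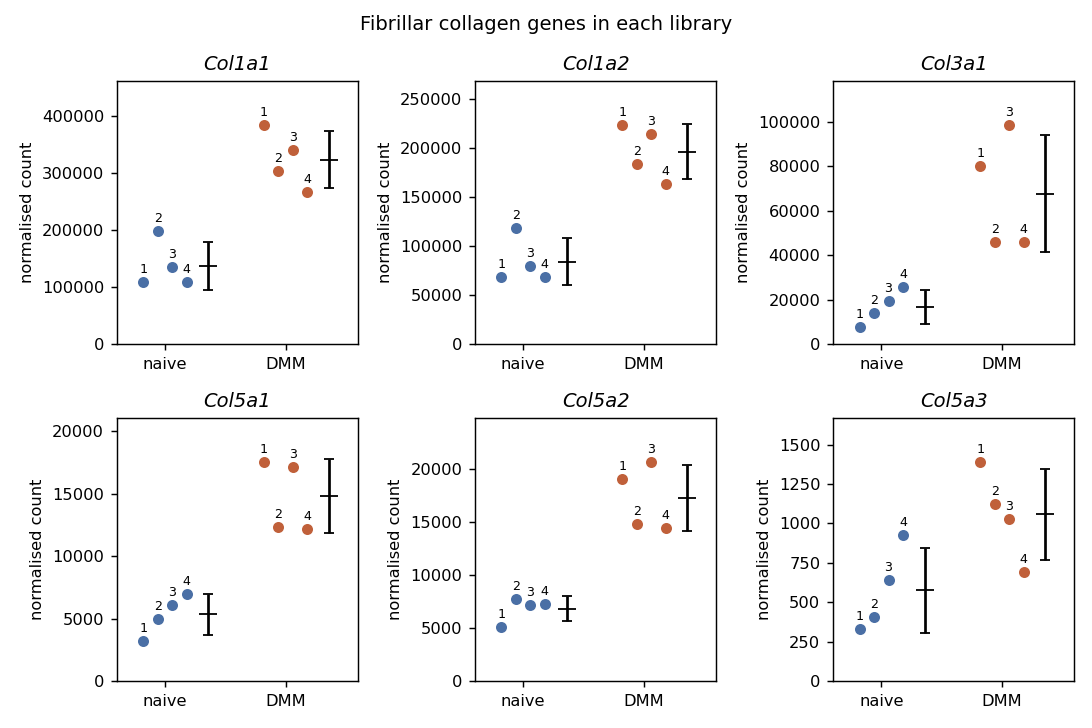
Normalised counts of the 6 genes in each library, with naive mice in blue and DMM mice in orange, the replicate number above each point and the mean with its SD in black (n = 4 mice per group, linear axes that start at 0 and differ between panels). The 4 DMM points lie above the 4 naive points for every gene except Col5a3, whose DMM 4 value of 690 falls below naive 4 at 923.

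The libraries held between 12479443 and 16548002 estimated counts. Chondrocyte markers that included Col2a1 and Acan were present in every library, but so were markers of bone, fibroblasts, marrow and blood, and no list had a gene at 0 in all libraries. Since whole tissue was sequenced, fewer cells of a type and less RNA per cell cannot be told apart for any gene described here. Neutrophil-lineage markers fell (8 of 8 tested genes called lower) and erythroid markers fell (6 of 7 called lower), against 5.92% of all tested genes called lower. All fold changes are relative to DESeq2 size factors, under which the median log2 fold change of all tested genes was -0.02. With scaling to the total count the median of genes with a mean of 10 or more moved from -0.01 to 0.14.

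The 2 type I genes had the highest normalised counts of the 6. Col1a1 (ENSMUSG00000001506), which encodes the alpha1 chain, occupies 51 exons of its longest coding transcript at chr11:94936224-94953042 on the plus strand (GRCm38), and ranked 5th of all genes by mean normalised count. Its normalised counts were 108513, 198416, 134503 and 108811 in naive mice 1 to 4 and 384195, 302873, 339966 and 267108 in DMM mice 1 to 4. Naive 2 was the highest naive library, and it was still below DMM 4, the lowest DMM library. The mean rose from 137561 ± 42360 (SD, n = 4) to 323535 ± 50201 (SD, n = 4), a log2 fold change of 1.23 ± 0.20 (SE), or 2.35-fold, with an adjusted P of 4.53e-08 in DESeq2.

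Col1a2 (ENSMUSG00000029661), the gene of the alpha2 chain at chr6:4504814-4541544 on the plus strand, followed Col1a1 closely and ranked 10th. Its normalised counts were 68904, 118642, 80100 and 68420 in the naive libraries and 223426, 183478, 214261 and 162983 in the DMM libraries. Again naive 2 was the highest naive library and DMM 4 the lowest DMM library, and the groups did not overlap. The mean rose from 84016 ± 23706 to 196037 ± 27884 (SD, n = 4 each), a log2 fold change of 1.22 ± 0.19 (SE), or 2.33-fold, with an adjusted P of 6.62e-09 in DESeq2.

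Col3a1 had the highest fold estimate of the 6 genes and the widest interval. This gene (ENSMUSG00000026043, chr1:45311538-45349706, plus strand) encodes the single chain of type III collagen. Its normalised counts were 7806, 14013, 19288 and 25705 in the naive libraries and 80281, 45936, 98632 and 45793 in the DMM libraries. The groups did not overlap, but within each of them the spread was wide: naive 4 was well above naive 1, and DMM 1 and 3 stood above DMM 2 and 4. The coefficient of variation was 45.6% among naive and 38.8% among DMM mice, compared with 30.8% and 15.5% for Col1a1. The mean rose from 16703 ± 7618 to 67661 ± 26259 (SD, n = 4 each), a log2 fold change of 2.02 ± 0.43 (SE) with a 95% interval from 1.17 to 2.87, or 4.05-fold, with an adjusted P of 7.84e-05 in DESeq2.

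The type V genes fell into an abundant pair and a rarer gene. Col5a1 (ENSMUSG00000026837, chr2:27886425-28039514, plus strand) encodes the alpha1(V) chain, which is present in most type V molecules. Its normalised counts were 3219, 4989, 6105 and 6990 in the naive libraries and 17578, 12367, 17127 and 12191 in the DMM libraries. The groups did not overlap, and DMM 1 and 3 were again the highest libraries. The mean rose from 5326 ± 1626 to 14816 ± 2936 (SD, n = 4 each), a log2 fold change of 1.48 ± 0.22 (SE), or 2.78-fold, with an adjusted P of 3.26e-09 in DESeq2.

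Col5a2 (ENSMUSG00000026042, chr1:45374321-45503282, minus strand), the gene of the alpha2(V) chain, varied least among the naive mice, with a coefficient of variation of 17.3%. Its normalised counts were 5099, 7777, 7153 and 7272 in the naive libraries and 19052, 14853, 20733 and 14499 in the DMM libraries. Naive 1 was low, the other naive libraries were close together, and the groups did not overlap. The mean rose from 6825 ± 1182 to 17284 ± 3092 (SD, n = 4 each), a log2 fold change of 1.34 ± 0.17 (SE), or 2.53-fold. Its adjusted P of 3.61e-13 in DESeq2 was the smallest of the 6 genes.

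Col5a3 (ENSMUSG00000004098, chr9:20770050-20815067, minus strand), which encodes the less widespread alpha3(V) chain, did not separate the groups. Its normalised counts were 330, 403, 641 and 923 in the naive libraries and 1392, 1122, 1028 and 690 in the DMM libraries. DMM 4 lay below naive 4 and close to naive 3, while the other DMM libraries were above all naive libraries. The means were 574 ± 268 and 1058 ± 289 (SD, n = 4 each), a log2 fold change of 0.88 ± 0.29 (SE) with a 95% interval from 0.31 to 1.45, or 1.84-fold, with an adjusted P of 0.0152 in DESeq2. The quasi-likelihood test of edgeR gave an adjusted P of 0.0704 and limma-voom one of 0.0512. With each of the 8 libraries left out in turn, the estimate ranged from 0.69 to 1.21 and the gene was called in 2 of 8 fits, those without naive 4 or without DMM 4.

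The other 5 genes were called with each library left out in turn and in edgeR. The leave-one-out estimates ran from 1.30 to 1.63 for Col5a1, from 1.78 to 2.30 for Col3a1 and from 1.23 to 1.42 for Col5a2. In edgeR the adjusted P-values of the 5 genes lay between 0.00275 for Col5a2 and 0.00984 for Col1a1. When the test was instead made against a null change of 1.5-fold in DESeq2, only Col5a1 and Col5a2 passed.

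**Figure D2:**
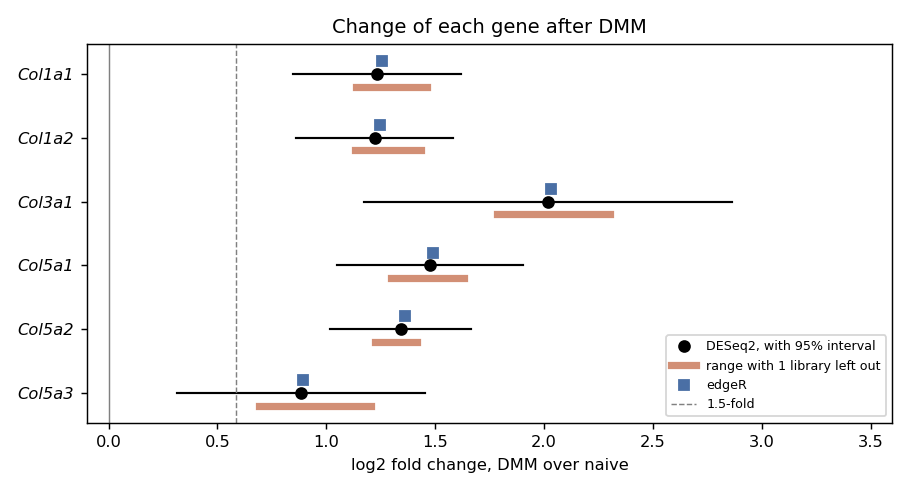
Log2 fold change (DMM over naive) of each gene in DESeq2 with its 95% interval (black), in edgeR (blue squares), and the range over the 8 fits that each leave out 1 library (orange bars), with 4 mice per group in the full fit and the dashed line at 1.5-fold. The interval of Col5a3 spans the dashed line and that of Col3a1, from 1.17 to 2.87, is the widest.

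The 250 bases before the RefSeq start sites were compared to see which short motifs these genes share, for the 4 genes with an entry in the RefSeq promoter table (GRCm38.p6). They are printed 5′ to 3′ on the strand of the gene, with matches to the CCAAT box, to the TATA box searched as TATAAA, to the GC box searched as GGGCGG or to the AP-1 site searched as TGANTCA, on either strand, in capitals. The windows are chr6:4505368-4505617 (plus strand) for Col1a2, which begins inside the longer GENCODE gene, chr1:45311288-45311537 (plus) for Col3a1, chr2:27886175-27886424 (plus) for Col5a1 and chr9:20815068-20815317 (minus) for Col5a3. The windows of Col1a1 and Col5a2 were not analysed here.
Col1a2: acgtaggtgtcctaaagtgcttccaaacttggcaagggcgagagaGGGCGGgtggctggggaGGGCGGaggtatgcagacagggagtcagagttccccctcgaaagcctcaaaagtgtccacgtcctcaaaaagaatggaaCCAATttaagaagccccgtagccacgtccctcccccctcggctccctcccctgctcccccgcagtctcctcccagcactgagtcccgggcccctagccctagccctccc
Col3a1: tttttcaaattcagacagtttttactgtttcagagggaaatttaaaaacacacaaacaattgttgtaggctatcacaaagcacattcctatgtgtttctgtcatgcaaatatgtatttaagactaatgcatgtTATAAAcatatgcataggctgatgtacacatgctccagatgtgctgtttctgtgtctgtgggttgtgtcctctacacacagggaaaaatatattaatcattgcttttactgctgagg
Col5a1: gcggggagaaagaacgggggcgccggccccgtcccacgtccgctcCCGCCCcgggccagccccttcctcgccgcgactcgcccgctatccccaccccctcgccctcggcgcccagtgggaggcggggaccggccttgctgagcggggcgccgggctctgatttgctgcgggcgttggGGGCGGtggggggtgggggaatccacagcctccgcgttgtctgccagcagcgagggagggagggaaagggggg
Col5a3: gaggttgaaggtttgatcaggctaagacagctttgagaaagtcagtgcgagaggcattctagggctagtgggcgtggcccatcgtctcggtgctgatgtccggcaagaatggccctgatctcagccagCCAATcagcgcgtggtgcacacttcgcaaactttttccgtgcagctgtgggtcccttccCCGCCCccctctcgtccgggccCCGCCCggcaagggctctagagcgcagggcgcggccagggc

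No motif was found in all 4 windows, and GGGCGG was found in 3 of them. Col1a2 held 1 CCAAT and 2 GGGCGG matches and Col5a3 held 1 and 2, while Col5a1 held 2 GGGCGG matches and no CCAAT. Col3a1 held neither but had 1 TATAAA match at bases -117 to -112 from the start. Of 32851 windows of this length in the table, 33.8% held CCAAT, 32.7% GGGCGG, 12.4% TATAAA and 6.7% TGANTCA, the last of which was in none of the 4. The GC content was 35.2% for Col3a1, 62.0% for Col1a2, 62.8% for Col5a3 and 76.4% for Col5a1, with a median of 52.4% over all windows. A match is a description of the letters and does not show that a factor binds there.

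Matches to the seed of the miR-29 family, microRNAs known to target collagens, were shared by 5 of the 6 genes. The mature sequences are printed below from the RefSeq table with the seed, bases 2 to 8, in capitals, beside miR-199a-5p, a microRNA that the study examined. The family members share 1 seed, whose match in a transcript is TGGTGCT.
mmu-miR-29a-3p: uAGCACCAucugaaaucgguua
mmu-miR-29b-3p: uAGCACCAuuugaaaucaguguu
mmu-miR-29c-3p: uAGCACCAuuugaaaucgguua
mmu-miR-199a-5p: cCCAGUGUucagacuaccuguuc

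In the 3′ UTR of the longest coding transcript, Col5a1 held 4 miR-29 seed matches, Col5a3 3, and Col1a1, Col3a1 and Col5a2 1 each, while Col1a2 held 0. Among 20753 genes 13.1% had a match, and among the 11586 genes whose 3′ UTR was at least as long as the shortest of the 6 (785 bases) 20.5% had one. The match to miR-199a-5p, ACACTGG, was in 0 of the 6 genes, against 13.4% of all genes and 21.0% of the longer set. The site nearest to the stop codon is shown for each gene in 30 bases of transcript sequence (GRCm38, match in capitals), at chr11:94952526-94952555 for Col1a1, chr1:45348970-45348999 for Col3a1, chr2:28037992-28038021 for Col5a1, chr1:45374955-45374984 (minus strand) for Col5a2 and chr9:20770770-20770799 (minus strand) for Col5a3.
Col1a1: ggaaggaatttcTGGTGCTatagaagctga
Col3a1: aaaatgtctcaaTGGTGCTataataaataa
Col5a1: actatgaacattTGGTGCTgaattttttac
Col5a2: ttcttttaatgaTGGTGCTaaaattatttc
Col5a3: acatgggctcctTGGTGCTgaggctctgag

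No microRNA was measured in these libraries, and a seed match does not show that a microRNA acts on the transcript.

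Expressed per kilobase of the longest coding transcript, so that levels could be compared between genes, the order was the same in both groups, but it depended on the transcript length chosen. In naive mice the mean level per kilobase was 23197 ± 7143 for Col1a1, 15710 ± 4433 for Col1a2 and 3002 ± 1369 for Col3a1 (SD, n = 4). The type V genes followed at 1030 ± 178 for Col5a2, 634 ± 193 for Col5a1 and 93.8 ± 43.8 for Col5a3. Each gene was above the next in all 4 naive libraries, although the ranges over libraries of Col1a1 and Col1a2, and those of Col5a2 and Col5a1, overlapped. In DMM mice the levels per kilobase were 54559 ± 8466, 36656 ± 5214, 12160 ± 4719, 2609 ± 467, 1763 ± 349 and 173 ± 47.3 in the same order (SD, n = 4), and no neighbouring ranges overlapped. With the median length of the annotated coding transcripts instead, which was 737 bases for Col3a1 against 5564 for its longest, Col1a2 stood above Col1a1 and Col5a1 above Col5a2 in both groups. Col3a1 then had the highest mean in DMM mice, at 91805 ± 35630 per kilobase (SD, n = 4), so the order of levels between these genes is not settled by these counts.

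The proportion between the 2 type I chains was nearly the same in every library, whereas the amount of type III relative to type I was not. Col1a1 stood at 1.42 to 1.55 times Col1a2 per kilobase over all 8 libraries, and the mean log2 ratio was 0.56 ± 0.05 in naive and 0.57 ± 0.05 in DMM mice (SD, n = 4). The log2 difference of 0.02 was smaller than the spread between mice (two-sided exact permutation test, P = 0.629, adjusted over 7 measures P = 0.733). Col3a1 relative to the 2 type I genes together was 0.045, 0.0453, 0.0921 and 0.148 per kilobase in the naive libraries and 0.135, 0.0967, 0.182 and 0.109 in the DMM libraries. Naive 1 and 2 were lower than all DMM libraries, naive 3 lay just under DMM 2, and naive 4 fell within the DMM range. The mean difference was 0.81 on the log2 scale (exact permutation P = 0.171, adjusted P = 0.4), so a greater rise of Col3a1 than of type I was not shown beyond the spread between mice.

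The proportions within and around type V also overlapped between the groups. The 3 type V genes together stood at a log2 ratio to type I of -4.46 ± 0.45 in naive and -4.33 ± 0.11 in DMM mice (SD, n = 4; exact permutation P = 0.629, adjusted P = 0.733). The ratio of Col5a2 to Col5a1 per kilobase was 2.01, 1.98, 1.49 and 1.32 in the naive libraries and 1.38, 1.52, 1.54 and 1.51 in the DMM libraries (exact permutation P = 0.4, adjusted P = 0.7). Naive 1 and 2 were thus apart from the other 6 libraries, which lay close together. Col5a3 relative to Col5a1 had a mean log2 ratio of -2.81 ± 0.29 in naive and -3.37 ± 0.32 in DMM mice, a difference of -0.56 (SD, n = 4; exact permutation P = 0.0571, adjusted P = 0.2).

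Together the 6 genes accounted for 1.36, 2.05, 1.72 and 1.51% of all estimated counts in the naive libraries and 5.4, 4.18, 5.08 and 3.84% in the DMM libraries. The groups did not overlap. The mean share was 1.66 ± 0.30% in naive and 4.62 ± 0.74% in DMM mice (SD, n = 4), and the exact permutation P of 0.0286 was the smallest that 4 against 4 mice allow (adjusted P = 0.2 over the 7 measures). One identifier without a gene symbol took 10.1 to 17.9% of the counts of naive and 4.31 to 8.65% of those of DMM libraries. Without it in the total, a choice made after seeing the data, the share of the 6 genes was 1.96 ± 0.41% in naive and 4.98 ± 0.79% in DMM mice (SD, n = 4).

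**Figure D3:**
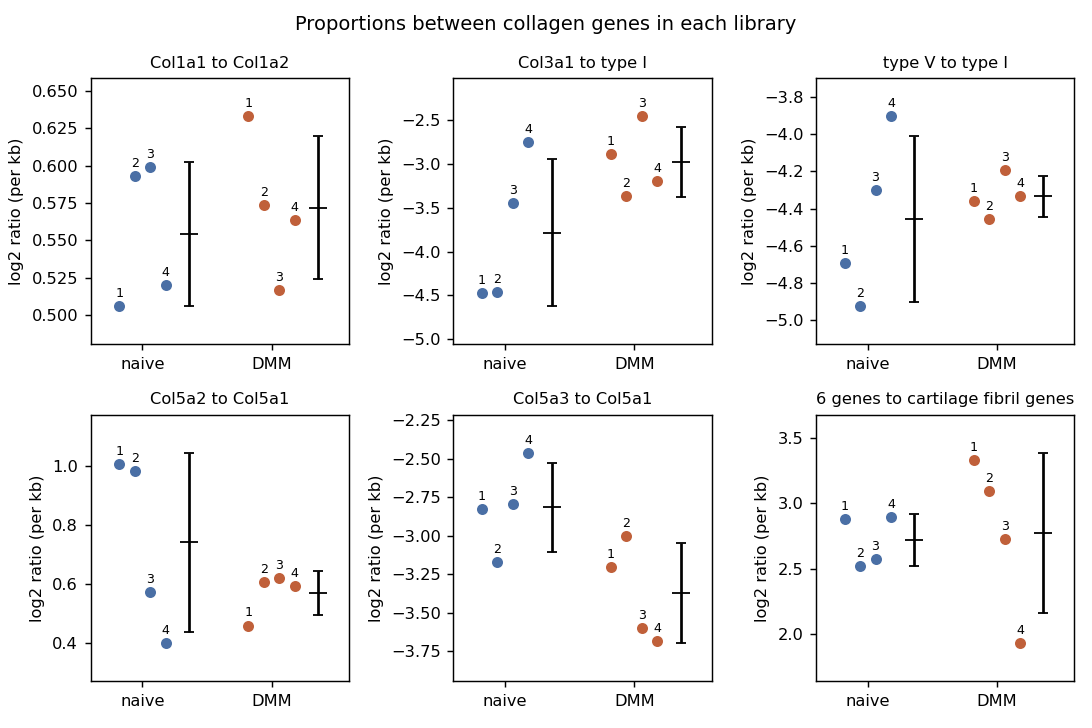
Log2 ratios of levels per kilobase between the collagen genes in each library, with replicate numbers above the points and the mean with its SD in black (n = 4 mice per group, axes differ between panels and do not start at 0). The groups overlap in every panel, and the ratio of Col1a1 to Col1a2 spans only 0.51 to 0.63 over all 8 libraries.

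Col2a1, Col11a1 and Col11a2 encode the chains of the cartilage fibril. The type I, III and V genes, taken as 1 sum, did not rise relative to them beyond the spread between mice. Type I held most of that sum, and types III and V were not set against the cartilage fibril genes on their own. Col2a1 in turn held most of the cartilage fibril sum, and per kilobase ran from 7872 in DMM 2 to 19166 in DMM 4. A ratio to Col11a1 and Col11a2 without Col2a1 was not compared. The 6 genes stood at 7.37, 5.75, 5.94 and 7.45 times the cartilage fibril genes per kilobase in the naive libraries and at 10.1, 8.54, 6.62 and 3.81 times in the DMM libraries. DMM 1 and 2 were above all naive libraries and DMM 4 was below them all. The mean log2 difference was 0.05 (exact permutation P = 0.857, adjusted P = 0.857). Col2a1 itself rose by a log2 fold change of 1.41 (adjusted P = 0.00703 in DESeq2), Col11a1 by 0.88 (0.000308) and Col11a2 by 0.77 (0.00197). The remaining fibrillar collagens, Col24a1 and Col27a1, rose by 1.21 (5.22e-07) and 1.19 (3.33e-09), so that 5 of 5 fibrillar collagens outside the 6 were called higher with a median log2 fold change of 1.19, against 7.75% and a median of -0.02 over all tested genes.

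Across the 8 libraries Col1a1 and Col1a2 had the most similar profiles of the 15 pairs that the 6 genes form. Likeness was measured as the root mean square difference between log2 profiles, each centred on its own mean over the 8 libraries, among the 11039 genes whose normalised count averaged 100 or more. For Col1a1 and Col1a2 this difference was 0.04, each was the nearest gene to the other, and the next nearest to both was C1qtnf6, a secreted C1q and TNF related protein, at 0.11 and 0.12. Among the other pairs, Col5a1 and Col5a2 differed by 0.21, Col1a2 and Col5a2 by 0.20, and Col1a1 and Col3a1 by 0.70. Type I and type III thus differed most in profile, with Col1a1 and Col1a2 high in naive 2 where Col3a1 was not, and Col3a1 low in naive 1.

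Each of the other 4 genes had different nearest genes. Nearest to Col3a1 were Fndc1, a fibronectin type III domain protein (0.20), and P4ha3, a subunit of the collagen prolyl 4-hydroxylase (0.22). Nearest to Col5a1 were Col6a1, a chain of the beaded-filament collagen VI (0.12), and the matrix adaptor Matn2 (0.13). Nearest to Col5a2 were P3h4, a member of the collagen lysyl hydroxylation complex (0.11), and Serpinf1, the secreted factor PEDF (0.12). Col5a3 lay nearest to Tril (0.17) and Pdlim4 (0.17). These values are descriptions without a test, all points share the same 8 libraries, and on variance-stabilised counts 6 of the 12 nearest genes were the same.

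**Figure D4:**
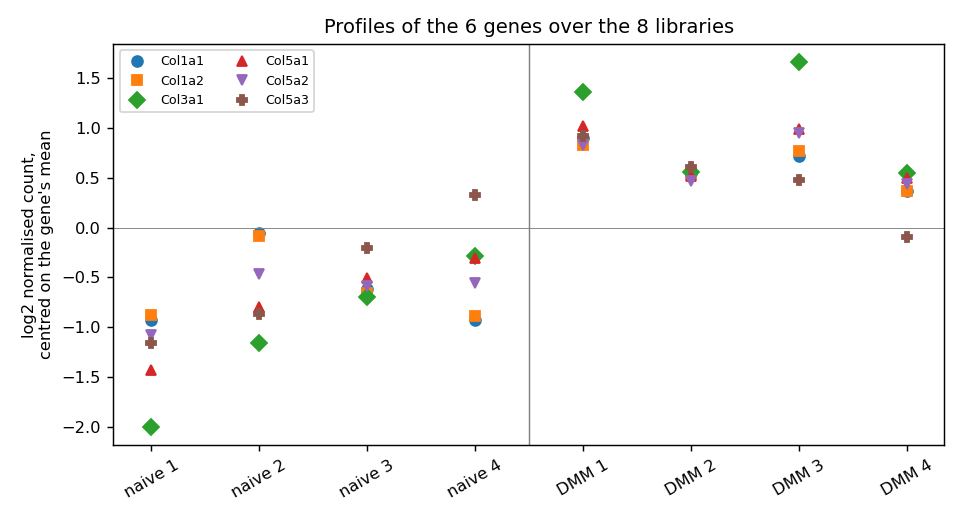
Log2 normalised count of the 6 genes in each of the 8 libraries, centred on each gene's mean over the libraries, with 1 symbol per gene (4 naive mice on the left, 4 DMM mice on the right). Col1a1 and Col1a2 overlie each other in every library, while Col3a1 spreads the widest and Col5a3 in naive 4 stands above its own value in DMM 4.

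Most tested genes of fibril production and 10 genes listed for collagen receptors and degradation were also called higher. Of 38 genes listed for procollagen folding, processing and fibril assembly, 37 were tested, 25 were called higher and 0 lower (7.75% and 5.92% of all tested genes), and the median log2 fold change was 0.85. The members with the smallest adjusted P-values were Fmod, a leucine-rich proteoglycan that binds collagen fibrils (2.08, adjusted P = 5.3e-21 in DESeq2), Fkbp10, a prolyl isomerase of the endoplasmic reticulum (0.92, 2.52e-13), and Creb3l1, a transcription factor of secretory cells known to drive Col1a1 (1.03, 1.49e-10). Of 18 genes for collagen receptors and degradation, 10 were called higher and 0 lower, against the same shares, with a median of 0.71. Its leading members were the gelatinase Mmp2 (1.80, 6.43e-10), the membrane-bound collagenase Mmp14 (0.92, 2.66e-08) and the surface protease Fap (0.84, 9.2e-08). The 5 fibrillar collagens and these lists were compared on the same 8 libraries as the 6 genes. They too were chosen with earlier results of these data known.

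Several marker lists of cells known to make type I collagen had higher sums in the DMM libraries, although no sum passed after adjustment. The smallest exact permutation P that 4 against 4 mice allow is 0.0286. After adjustment over 12 lists, a list could therefore pass only if most lists separated the groups fully. Of the 11 tested osteoblast and osteocyte markers 8 were called higher, not Runx2, Mepe or Ifitm5 (7.75% of all tested genes were), and their summed normalised count was 22720 to 30350 in naive and 45960 to 80333 in DMM mice (exact permutation P = 0.0286, adjusted over 12 lists P = 0.0858). The largest part of the rise in the mean of that sum, from 26673 to 58232, was Ibsp, from 8953 to 24145. Ibsp was uneven among DMM mice, from 12617 to 39895, and the osteoblast sum without it was not compared. Tendon and ligament markers ranged from 3989 to 7407 in naive and from 10160 to 15841 in DMM mice. Of these 7 markers 4 were called higher, not Mkx, Thbs4 or Egr1. Most of the rise in the mean of that sum, from 5427 to 11963, was Fmod, from 1841 to 7774. The tendon sum without Fmod was not compared. Activated fibroblast markers ranged from 1732 to 3115 and from 4514 to 6884, and 5 of 6 were called higher, not Tagln. The exact permutation P was 0.0286 and the adjusted P 0.0858 for both. These 3 lists separated the groups, as 5 of the 6 collagen genes did, and their part in the collagen result was not tested.

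The whole chondrocyte and general fibroblast lists overlapped between the groups in sum. Chondrocyte markers ranged from 94361 to 166177 in naive and from 145806 to 197787 in DMM mice. Of 13 tested, 5 were called higher (7.75% of all tested genes) and 9 had a higher estimate in DMM mice. Prg4 (mean 55406 in naive and 38199 in DMM mice) and Cilp (19441 and 17207) weighed on that sum and were not called. The chondrocyte sum without them was not compared. Synovial and general fibroblast markers ranged from 13582 to 24301 and from 20080 to 33762, with 6 of 10 called higher (exact permutation P = 0.114). The largest part of the fibroblast sum was Gsn, at a mean of 10773 in naive and 10525 in DMM mice (61.2% and 41.7%). The other 9 markers, a split made after the data were seen, ranged from 5301 to 8414 and from 11659 to 20222 without overlap. Most of the rise in their mean sum, from 6824 to 14712, was Lum, from 1680 to 6559. Pi16 was lower in every DMM library, at 421 to 506 in naive and 342 to 366 in DMM mice. Pi16, Cd34 and Clec3b were not called. The fibroblast sum without Lum was not compared. Erythroid (exact permutation P = 0.0571), adipocyte (0.114), osteoclast (0.229), endothelial (0.6), skeletal muscle (0.857) and macrophage (0.971) sums did not separate the groups either. Fmod stands in both the assembly and the tendon list, and Lum, Fap and Postn are likewise shared between lists, so these sums are not independent of the lists above.

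The counts of type I and type III collagen were also set against 2 of these marker sums, in a comparison chosen after the data were seen. Type I counts stood at 7.81, 13.4, 7.17 and 5.84 times the osteoblast and osteocyte sum in the naive libraries and at 13.2, 10.6, 9.14 and 5.35 times in the DMM libraries. These values overlapped, with a mean log2 difference of 0.16 (exact permutation P = 0.686, adjusted over 4 measures P = 0.686). Col3a1 stood at 0.575, 0.944, 1.09 and 1.06 times the synovial and general fibroblast sum in the naive libraries and at 3.17, 2.11, 2.92 and 2.28 times in the DMM libraries. Every DMM library was above every naive library, with a mean log2 difference of 1.54 (exact permutation P = 0.0286, adjusted P = 0.114). Over the same fibroblast sum type I had a log2 difference of 0.73 (exact permutation P = 0.0571, adjusted P = 0.114), and Col3a1 over the osteoblast sum one of 0.97 (exact permutation P = 0.114, adjusted P = 0.152), both with overlapping groups. Gsn, a broadly expressed actin-severing gene that held 61.2% of the fibroblast sum in naive and 41.7% in DMM mice, weighed on these values. Without it the difference of Col3a1 fell to 0.97 (exact permutation P = 0.0286, no overlap) and that of type I to 0.17 (exact permutation P = 0.629). The direct ratio of Col3a1 to type I, given above, did not differ between the groups beyond the spread between mice.

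**Figure D5:**
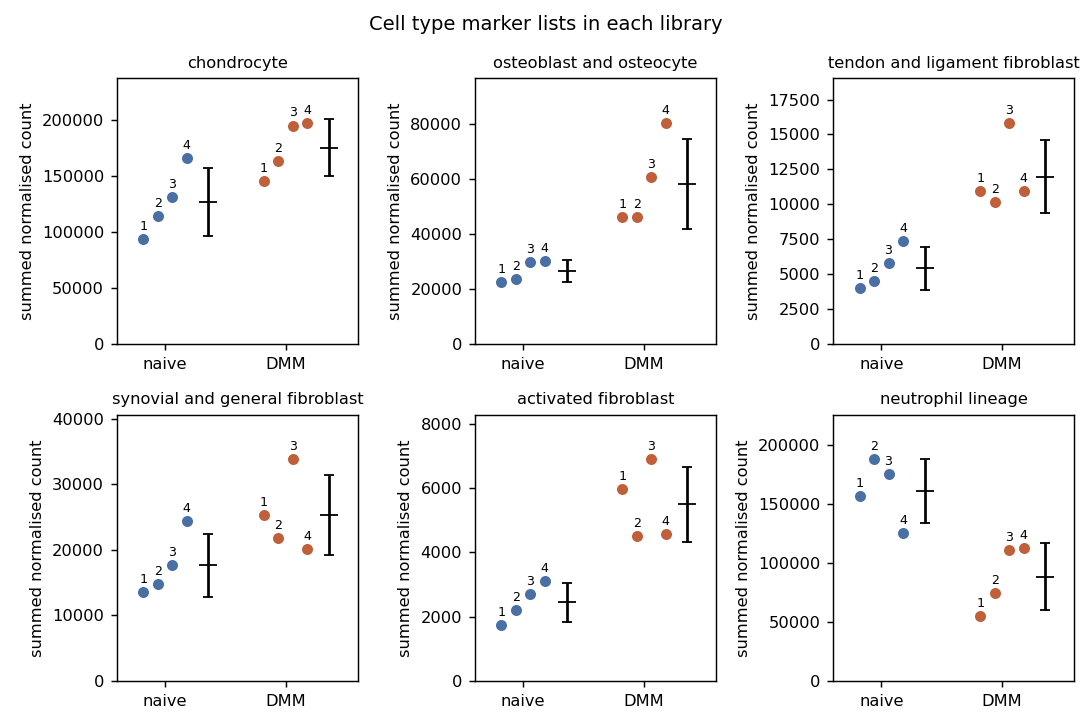
Summed normalised counts of 6 cell type marker lists in each library, with replicate numbers above the points and the mean with its SD in black (n = 4 mice per group, linear axes that start at 0). Osteoblast, tendon and activated fibroblast sums do not overlap between the groups, and neither do the neutrophil-lineage sums, which were lower in DMM mice.

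Col3a1 and Col5a2 are neighbours on chromosome 1. They are transcribed towards each other from opposite strands, and their 3′ ends lie 24614 bases apart with 0 annotated genes between them. Their profiles differed by 0.53 over the 8 libraries, more than those of Col5a2 and Col5a1, which lie on different chromosomes (0.21). Of the genes antisense to Col5a1, 2 were in the table and together reached at most 0.547% of its estimated counts in any library. Stretches of 31 bases shared with transcripts of other genes made up 0.05% of Col1a1 and 2.18% of Col5a1, the lowest and the highest share of the 6 genes.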

How the data were processed

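RNA had been extracted from medial knee cartilage of single mice and sequenced. The values are estimated counts per gene, made by the authors with Trimmomatic (read trimming), Kallisto (pseudo-alignment) and tximport (transcripts summed to genes). Of them 39.0% of values differed from a whole number by more than 1e-06, and all were rounded. The methods of the study name GRCm38 with a release built on GRCm39, the labels name a human build, and labels and methods name different library kits; none of this was resolved. Symbols were present for 48855 of 50462 identifiers, holding 86.6% of counts. Whether counting used strand is not given in the sources used here.

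All genes were fitted in DESeq2 1.42.0 (R 4.3.3; Wald test, no covariate, P-values adjusted by Benjamini-Hochberg over 17760 genes after independent filtering). Alternatives were edgeR 4.0.16 (quasi-likelihood), limma 3.58.1 (voom), TMM and total count scaling, a filter of 10 counts in 4 libraries, no independent filtering, no fold threshold, a null of 1.5-fold, a replicate block, each library left out and, for ratios, counts not divided by length or divided by the median transcript length. The scripts were tested on simulated data. Ratios and sums were compared by two-sided exact permutation tests over 70 assignments. Lengths and positions came from GENCODE vM21 (GRCm38). Named genes were the 6 members, the other fibrillar collagens, the 3 members of each pathway list with the smallest adjusted P and the 2 genes of nearest profile. Members and lists were chosen with earlier results of these data known. Libraries that share a replicate number did not vary together (correlations of their deviations from the group means over genes, 0.05, 0.06, -0.12 and 0.12).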

Additional observations from a re-analysis of the deposited data

Results flagged for a closer look

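The log2 ratio of Col5a2 to Col5a1 per kilobase in DMM mouse 1 was 0.460, apart from the 0.594 to 0.619 of the other 3 DMM mice by more than Dixon's 95% limit for 4 samples allows. Of 48 groups tested in this way 1 was flagged, where chance alone gives about 2.4. In naive mice the same ratio ranged more widely, from 0.40 to 1.01, so that DMM 1 lay inside the naive range.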

How the results depend on the processing

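Col5a1 and Col5a2 kept their direction and their call under every alternative, and Col1a1, Col1a2 and Col3a1 did so except in the test against a null of 1.5-fold. Under that null 2 of the 6 genes were called (94 of all genes, 0 of the other fibrillar collagens, 3 of the assembly list and 1 of the receptor list), and Col1a1 (1.23, adjusted P = 0.149 in DESeq2), Col1a2 (1.22, 0.1), Col3a1 (2.02, 0.146) and Col5a3 (0.88, 1) lost their call. Col5a3 was also not called in edgeR (0.90, adjusted P = 0.0704), in limma-voom (0.98, 0.0512), with total count scaling (1.02, 0.0557) or with the replicate block (0.96, 0.185), and its estimate ran from 0.69 to 1.21 over the fits that left out 1 library. The replicate block changed the call of no other member, and the numbers did not pair the mice. Without a fold threshold 4010 genes passed against 2429. Leaving out 1 library gave 1858 to 2842 called genes and 5 to 6 called members. On variance-stabilised counts 6 of the 12 nearest genes were the same. Differences in ratios were not tested with a library left out, since 3 against 4 mice allow no P below 0.0571. The difference in the ratio of Col3a1 to type I then ranged from 0.58 to 1.15, and that of the 6 genes to the cartilage fibril genes from -0.13 to 0.33. Without division by length, or with the median transcript length, the differences in the 6 ratios kept their direction and none passed, and that of the 6 genes to the cartilage fibril genes moved from 0.05 to 0.08 and 0.27. What caused these changes was not tested. With 4 mice per group, no sham-operated group and whole tissue, a difference in ratio smaller than the spread between mice could not be resolved.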
